A study of Mus musculus with 11 samples.

Results

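Levels of 10 genes of MHC class I antigen presentation were compared in mouse bone marrow-derived macrophages cultured with or without the protein CYR61. The genes were H2-K1, H2-D1, B2m, Tap1, Tap2, Tapbp, Nlrc5, H2-T23, H2-M3 and Erap1, taken by their symbols. They were chosen with earlier results of these data known. Each symbol matched 1 of the 55487 gene identifiers in the count table, and all 10 were among the 15135 genes that passed the filter on low counts. CYR61, or CCN1, is secreted into the extracellular matrix and signals to cells through integrins. The macrophages were grown from marrow of C57BL/6J mice aged 2 to 5 months, over 5 to 6 days, in medium with 10% FBS and CMG-conditioned medium, first at 10% and then at 2%. The 7 control libraries received 0.00 µg/ml CYR61 and the 4 CYR61 libraries 0.5 µg/ml for 24 h, so both groups share the strain, the serum and the conditioned medium. The labels name no vehicle for the control cells and leave it unsaid if each library was a mouse or culture of its own, so p-values reflect only how far these libraries differ among themselves, which may be technical.

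MHC class I molecules display short peptides, cut from proteins made inside the cell, to CD8 T cells and natural killer cells. Proteasomes cut the peptides in the cytosol, the TAP1-TAP2 transporter carries them into the endoplasmic reticulum, ERAP1 trims them there, and tapasin holds the empty molecule at the transporter until a peptide is bound. The finished molecule is a heavy chain joined to beta-2-microglobulin, and NLRC5 is a transcriptional activator of MHC class I genes. Macrophages use the pathway both for their own proteins and, in cross-presentation, for material they have engulfed.

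Libraries held 14912123 to 21047654 counts in the control group and 17390272 to 20760322 in the CYR61 group. Ribosomal RNA made up 0.246 to 0.797% of counts in 10 of the 11 libraries and 2.41% in CYR61 replicate 4. Of 10 macrophage markers, 7 rose and 0 fell with CYR61 in the test given below, beside 5.33% and 2.63% of all genes tested. Their summed level was 22920 to 24240 CPM in controls and 25420 to 27760 CPM with CYR61. CPM is the usual scaling of counts to a common library total, here with TMM factors. Dendritic cell markers, a list that matters here because such cells are strong presenters, summed to 3.96 to 5.33 CPM in controls and 3.94 to 4.64 CPM with CYR61, with 0 of 4 tested markers passing. B cell markers summed to 55.3 to 68.6 CPM and 46.0 to 50.1 CPM, with Ighm lower and with Pax5 at 0 in every library. The T and NK cell markers reached at most 0.505 CPM in sum, with Cd3e, Cd3g, Nkg7, Ncr1 and Gzma at 0. Neutrophil markers summed to 40.1 to 46.6 CPM and 37.8 to 46.4 CPM, with S100a8 higher and Ly6g at 0, and endothelial markers to 143.9 to 157.3 CPM and 116.9 to 137.7 CPM, with Vwf lower. Mast cell, stromal and erythroid markers stayed at or under 1.85 CPM in sum in every library. The part of the macrophage, B cell, neutrophil and endothelial marker differences in the results below was not tested. In bulk libraries, fewer cells of a type and less RNA per cell cannot be told apart.

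With CYR61, 7 of the 10 genes rose, 0 fell and 3 did not pass the test (edgeR quasi-likelihood test, Benjamini-Hochberg adjusted p under 0.05 over all 15135 genes). Those that rose were H2-K1, B2m, Tap1, Tapbp, Nlrc5, H2-T23 and Erap1, and those that did not pass were H2-D1, Tap2 and H2-M3. Over all genes tested, 5.33% were called higher (806 genes) and 2.63% lower (398 genes), and with library size alone in place of TMM these counts became 529 and 938, with upper-quartile factors 671 and 552. The 10 genes had a median log2 fold change of 0.18, a 1.14-fold level, beside -0.01 for all genes tested. The median fold among all 806 genes called higher was 1.18. In 3 of the 10 (H2-K1, Tapbp and Nlrc5) all 4 CYR61 libraries lay above all 7 controls, which held for 4.65% of all genes tested. The authors' deposited table gives adjusted p-values under 0.05 for the same 7 genes.

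**Figure D1:**
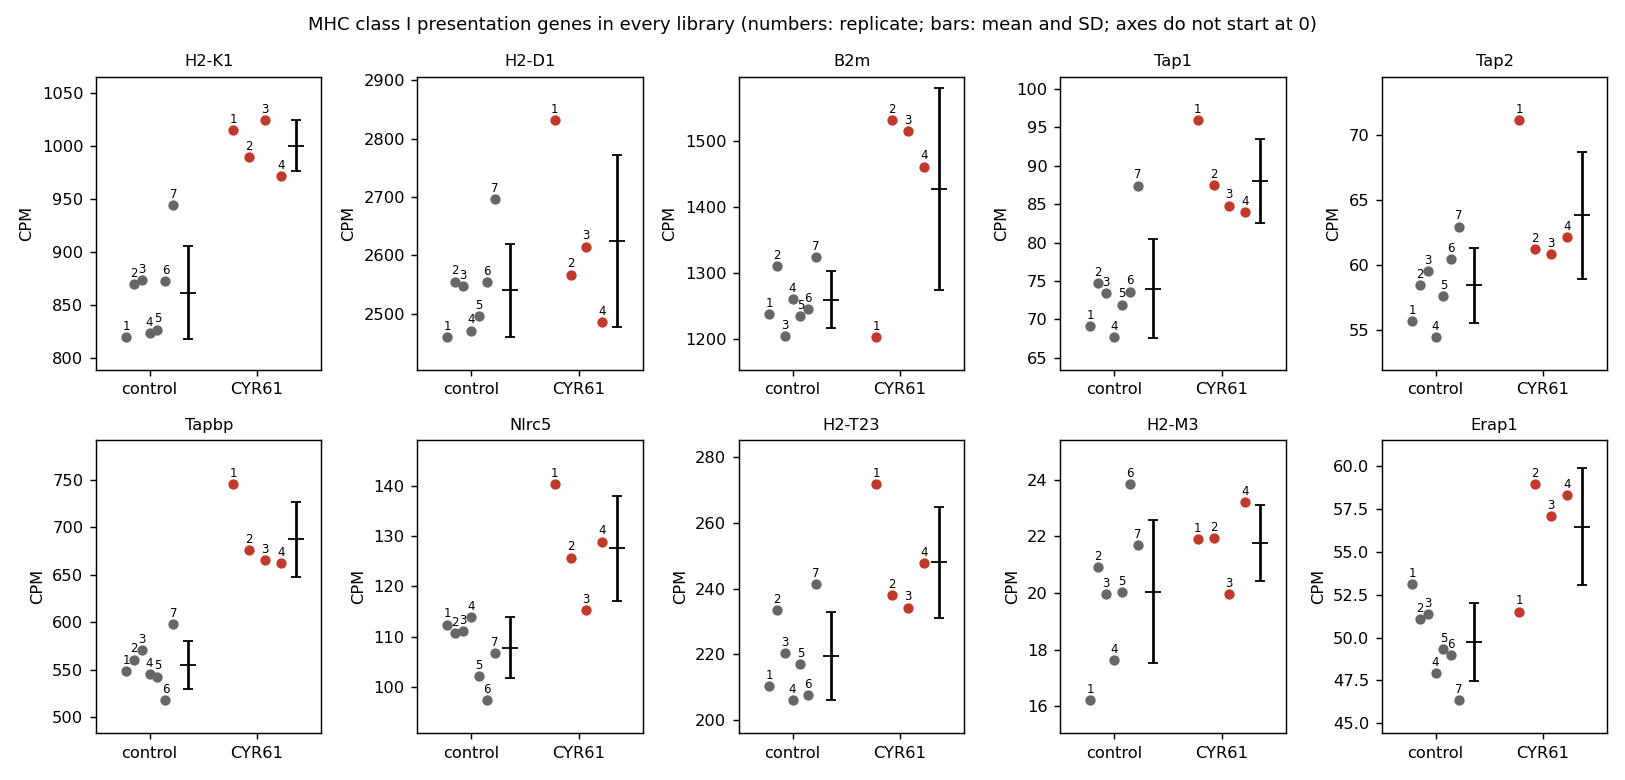
Level of each of the 10 class I presentation genes in every library (vertical axis: TMM-scaled CPM, a separate scale for each gene that does not start at 0), with numbered replicates as points and the group mean and SD as bars. The 4 CYR61 points of H2-K1, Tapbp and Nlrc5 lie above all 7 control points, and CYR61 replicate 1 of B2m lies at 1203 CPM, apart from the other 3.

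Both classical heavy chains of this strain, H2-K1 and H2-D1, were abundant, and they differed in their response. H2-K1, on chromosome 17, had 819, 870, 873, 823, 826, 872 and 944 CPM in control replicates 1 to 7. With CYR61 its level was 1015, 990, 1024 and 971 CPM in replicates 1 to 4. The groups did not overlap, and the lowest CYR61 library stood above control replicate 7, the highest control. The means were 861 ± 43.9 CPM (SD, n = 7) and 1000 ± 23.9 CPM (SD, n = 4), a 1.16-fold rise (95% interval 1.10 to 1.23, edgeR adjusted p = 0.000878). H2-D1, also on chromosome 17, had 2460, 2555, 2547, 2471, 2496, 2554 and 2696 CPM in the controls and 2831, 2567, 2615 and 2486 CPM with CYR61. Its groups overlapped, with CYR61 replicate 4 below 5 of the 7 controls. The means were 2540 ± 79.4 CPM (SD, n = 7) and 2625 ± 147 CPM (SD, n = 4), a ratio of 1.03 (95% interval 0.982 to 1.09, edgeR adjusted p = 0.495). The interval leaves room for a rise of up to 1.09-fold in H2-D1, below the lower end of the H2-K1 interval. The counts of both genes were not whole numbers in any library, as happens where an estimate divides reads between features. The same held for Tap1, Tap2, Tapbp, H2-T23 and Erap1. H2 genes hold near-identical stretches, so the split between H2-K1, H2-D1 and their relatives is uncertain.

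Within a library, the H2-K1 to H2-D1 ratio of counts is free of the scaling between libraries. It was 0.331 to 0.350 in the controls (mean 0.339 ± 0.00681, SD, n = 7) and 0.359 to 0.391 with CYR61 (mean 0.382 ± 0.0155, SD, n = 4), with no overlap. The log2 ratio was higher by 0.17 with CYR61 (p = 0.00606 in a two-sided exact permutation test, adjusted over 4 ratios p = 0.0242). With 7 against 4 libraries, 0.00606 is the smallest p that this two-sided test allows. Leaving out each library in turn gave differences of 0.16 to 0.20. The 4 ratios tested between genes of the pathway were chosen after their values were seen.

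The upstream sequences of the classical heavy chain genes are close relatives. The 250 bases before each gene's start were read from RefSeq (build GRCm38.p6), which had an entry for 8 of the 10 genes and none for Tap2 and Nlrc5. They were searched on both strands for letters of sites known from class I promoters, chosen after the windows had been seen. The searched letters were GAANNGAAA (interferon response element), a longer form of it with GAAA on both sides of 2 bases, GGGNNTTCC (kappa-B site of NF-kappa-B), a longer form of it with 3 bases between GGG and TTCC, TGACG (core of the cyclic AMP response element, which in class I genes lies in the SXY module used by NLRC5) and CCAAT (the NF-Y site). None of the matches in the 8 genes overlapped another. The stretch of 30 bases that holds the kappa-B and interferon response matches is shown for H2-K1 (chr17:34000429-34000458, minus strand) and H2-D1 (chr17:35262923-35262952, plus strand), because these are the sites by which both genes are classically known to be induced. Capitals mark the matches, GGGNNTTCC on the left and the reverse complement of GAANNGAAA on the right.
H2-K1: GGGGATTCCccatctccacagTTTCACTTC
H2-D1: GGGGATTCCccatctcctcagTTTCACTTC
Of these 30 bases 29 are identical, and of 190 upstream bases lined up without gaps 166 (87.4%) are identical. In both genes the interferon response match begins 21 bases after the start of the kappa-B match, TGACG begins 49 bases further on, and the next CCAAT match, on the reverse strand, begins 25 bases after that.

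The whole 250 bases upstream of H2-K1 (chr17:34000348-34000597, minus strand) and 249 bases upstream of B2m (chr2:122147437-122147685, plus strand) are shown to set the order of these matches side by side. Capitals mark matches to any of the searched letters on either strand.
H2-K1: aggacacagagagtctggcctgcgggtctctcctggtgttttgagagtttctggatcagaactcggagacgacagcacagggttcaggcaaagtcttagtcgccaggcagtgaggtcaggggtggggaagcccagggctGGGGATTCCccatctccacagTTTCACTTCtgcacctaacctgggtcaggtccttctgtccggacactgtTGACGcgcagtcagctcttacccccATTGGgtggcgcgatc
B2m: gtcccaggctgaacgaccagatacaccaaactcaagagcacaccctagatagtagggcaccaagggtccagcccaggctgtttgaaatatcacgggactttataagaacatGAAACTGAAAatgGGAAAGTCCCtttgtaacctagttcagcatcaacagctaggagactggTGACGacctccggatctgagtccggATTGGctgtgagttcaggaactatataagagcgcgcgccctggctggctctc
In H2-K1 the kappa-B match lies before the interferon response match, and in B2m the longer interferon response match (GAAACTGAAA) lies before the longer kappa-B match (GGAAAGTCCC, reverse strand). In the sequences shown, TGACG followed by ATTGG stands nearest to the start in both. RefSeq also lists another H2-K1 start, and the window before it holds a further CCAAT match at bases -6 to -2. Among the 8 genes, GAANNGAAA was found in 3 (H2-K1, H2-D1 and H2-M3), beside 6.35% of 32536 RefSeq windows of the same length, and its longer form in 2 (B2m and H2-T23), beside 2.98%. GGGNNTTCC was found in 2 (H2-K1 and H2-D1), beside 5.0% of windows, and its longer form in 1 (B2m), beside 4.65%. TGACG was found in 5, beside 17.9%, and CCAAT in 7, beside 33.8%. These matches are letters in a window, not measured binding. The letters were chosen after these windows had been seen, and H2-K1 and H2-D1 are close relatives. The shares therefore cannot show that the 8 genes hold more matches than other windows. Among the genes that rose, H2-K1, B2m and H2-T23 had interferon response letters in 1 of the forms and Tap1, Tapbp and Erap1 had neither. H2-D1 and H2-M3, which did not pass, both had them. In the GENCODE M21 annotation, all 250 bases of the H2-D1, Tap1, Tapbp and Erap1 windows lie in annotated exons. Letters missing from a window may therefore lie elsewhere in a gene's promoter.

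The light chain gene B2m, on chromosome 2, rose in 3 of the 4 CYR61 libraries. It had 1238, 1311, 1204, 1261, 1235, 1245 and 1324 CPM in the controls and 1203, 1531, 1515 and 1461 CPM with CYR61. Replicate 1 of CYR61 stood at the level of the lowest control, and the other 3 stood above every control. The means were 1259 ± 43.1 CPM (SD, n = 7) and 1427 ± 153 CPM (SD, n = 4), a 1.13-fold rise (95% interval 1.05 to 1.22, edgeR adjusted p = 0.0363). This call was lost in 11 of 24 alternative analyses, 8 of which leave out 1 library (control replicates 1, 3, 4, 5 and 6 and CYR61 replicates 2, 3 and 4). The log2 fold changes ran from 0.14 to 0.25 over the 24, and the highest adjusted p was 0.156, without CYR61 replicate 2. The ratio of B2m to both classical heavy chains together was 0.371 ± 0.0115 (SD, n = 7) in controls and 0.396 ± 0.0555 (SD, n = 4) with CYR61 (log2 difference 0.08, two-sided exact permutation p = 0.376, adjusted over 4 ratios p = 0.376). It was 0.313 in CYR61 replicate 1, below all 7 controls, and 0.416 to 0.430 in the other 3, above all of them.

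The nonclassical heavy chains in the set are H2-T23, which encodes Qa-1, the mouse ligand of the natural killer cell receptor CD94/NKG2A, and H2-M3, which presents N-formylated peptides of bacteria and mitochondria. H2-T23 rose. It had 210, 233, 220, 206, 217, 208 and 241 CPM in the controls and 272, 238, 234 and 248 CPM with CYR61. The lowest CYR61 library stood above 6 of the 7 controls, and the overlap came from control replicate 7. The means were 219 ± 13.5 CPM (SD, n = 7) and 248 ± 17.0 CPM (SD, n = 4), a 1.13-fold rise (95% interval 1.05 to 1.21, edgeR adjusted p = 0.0292). The call was lost in 7 of 24 alternatives, 6 of which leave out 1 library (control replicates 3 to 6 and CYR61 replicates 1 and 4), and without CYR61 replicate 1 the log2 fold change was 0.13 and the adjusted p 0.0979. H2-M3 was 16.2, 20.9, 20.0, 17.6, 20.0, 23.8 and 21.7 CPM in the controls and 21.9, 21.9, 20.0 and 23.2 CPM with CYR61. Control replicate 6 was the highest of all 11 libraries for H2-M3. The means were 20.0 ± 2.53 CPM (SD, n = 7) and 21.7 ± 1.34 CPM (SD, n = 4). The ratio of 1.08 (95% interval 0.959 to 1.22, edgeR adjusted p = 0.488) rests on 247 to 510 counts per library, the fewest of the 10 genes, so a change of the size seen in H2-T23 lies inside its interval.

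Both genes of the peptide transporter are on chromosome 17 and encode the subunits of 1 heterodimer, TAP1 and TAP2. Tap1 had 69.1, 74.7, 73.4, 67.7, 71.9, 73.6 and 87.4 CPM in the controls and 95.9, 87.5, 84.8 and 84.0 CPM with CYR61. The CYR61 libraries stood above 6 of the 7 controls, and control replicate 7 lay within their range. The means were 74.0 ± 6.44 CPM (SD, n = 7) and 88.0 ± 5.46 CPM (SD, n = 4), a 1.19-fold rise (95% interval 1.09 to 1.29, edgeR adjusted p = 0.00828). Tap2 had 55.7, 58.5, 59.5, 54.5, 57.6, 60.5 and 63.0 CPM in the controls and 71.1, 61.2, 60.8 and 62.2 CPM with CYR61. Only CYR61 replicate 1 stood above every control. The means were 58.5 ± 2.89 CPM (SD, n = 7) and 63.8 ± 4.90 CPM (SD, n = 4), a ratio of 1.09 (95% interval 1.02 to 1.17, edgeR adjusted p = 0.123), which did not pass. The ratio of Tap1 to Tap2 counts was 1.22 to 1.39 in the controls (mean 1.26 ± 0.0578, SD, n = 7) and 1.35 to 1.43 with CYR61 (mean 1.38 ± 0.0387, SD, n = 4). It was higher by 0.13 on the log2 scale (two-sided exact permutation p = 0.0182, adjusted over 4 ratios p = 0.0242), with control replicate 7 at 1.39 inside the CYR61 range. In the GENCODE M21 annotation, which need not be the one behind the deposited counts, exons of Tap1 share 212 bases with Psmb9 on the opposite strand, and those of Tap2 share 533 bases with Gm15821 and 165 with Gm20496. Use of the strand in counting is not given in the sources at hand, so reads of these overlaps cannot be assigned. Psmb9 itself rose from 33.4 ± 3.02 CPM (SD, n = 7) to 39.4 ± 0.927 CPM (SD, n = 4; edgeR adjusted p = 0.0168), while Gm15821 was at 1.19 and 0.957 CPM.

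Tapasin (Tapbp, chromosome 17), which bridges the transporter and the empty class I molecule, had the largest fold change of the 10 genes in this fit. It had 548, 561, 571, 545, 543, 518 and 598 CPM in the controls and 746, 676, 665 and 662 CPM with CYR61. All 4 CYR61 libraries stood above all 7 controls, and replicate 1 stood above the other 3. The means were 555 ± 25.1 CPM (SD, n = 7) and 687 ± 39.5 CPM (SD, n = 4), a 1.24-fold rise (95% interval 1.17 to 1.31, edgeR adjusted p = 6.4e-05). The ratio of Tapbp to Tap1 plus Tap2 was 4.20 ± 0.217 (SD, n = 7) in controls and 4.53 ± 0.0443 (SD, n = 4) with CYR61, higher by 0.11 on the log2 scale (two-sided exact permutation p = 0.0121, adjusted over 4 ratios p = 0.0242). The groups met at 4.47 in the highest control and 4.46 in the lowest CYR61 library. Tapbp exons share 149 bases with Zbtb22 on the same strand and 904 with Gm19412 on the opposite strand. Zbtb22 was at 44.5 CPM in controls and 42.8 CPM with CYR61 (edgeR adjusted p = 0.563), and Gm19412 at 1.97 and 2.11 CPM.

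**Figure D2:**
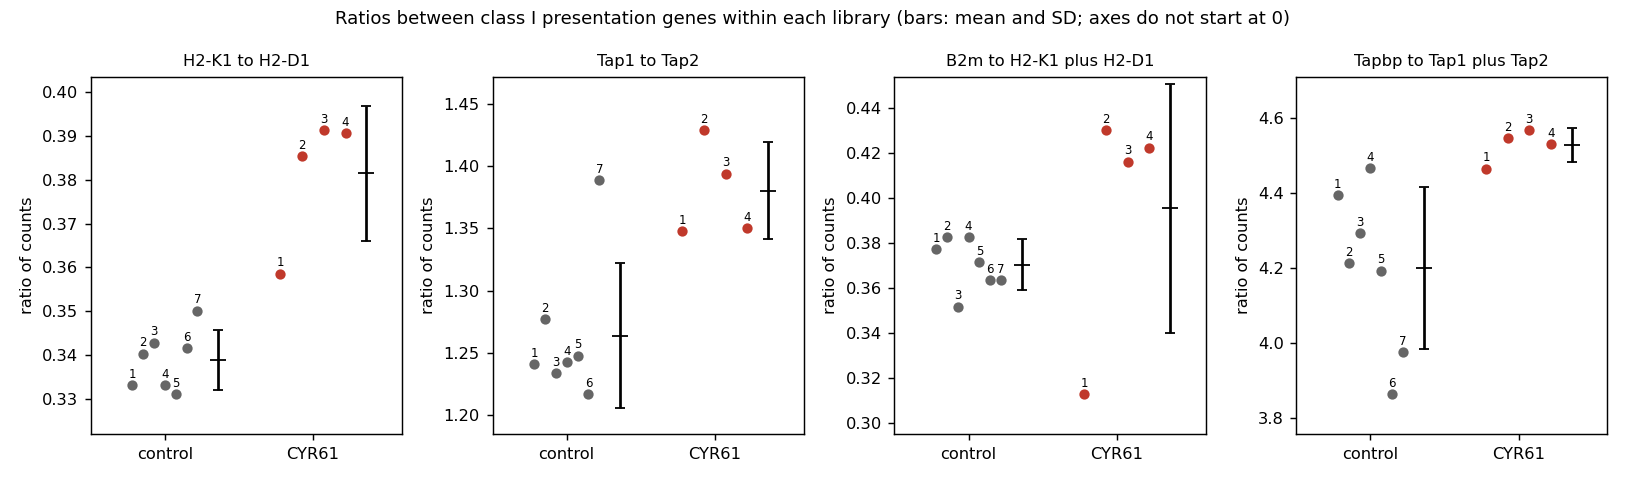
Ratio of counts between genes of the class I pathway within each library (vertical axes do not start at 0), with numbered replicates as points and the group mean and SD as bars. The H2-K1 to H2-D1 ratio separates the groups, and the B2m ratio of CYR61 replicate 1 (0.313) lies below every control.

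The peptidase Erap1, on chromosome 13, rose although it was the least expressed of the 10 genes per length. It had 53.1, 51.1, 51.4, 47.9, 49.3, 49.0 and 46.3 CPM in the controls and 51.5, 59.0, 57.1 and 58.3 CPM with CYR61. CYR61 replicate 1 lay within the control range and the other 3 above it, the same 3 libraries that stood high for B2m. The means were 49.7 ± 2.29 CPM (SD, n = 7) and 56.5 ± 3.40 CPM (SD, n = 4), a 1.14-fold rise (95% interval 1.07 to 1.21, edgeR adjusted p = 0.011). The call was lost without CYR61 replicate 2 and in the fits on 8 libraries, those with and without the replicate number as a block. Its exons share 834 bases with Cast on the opposite strand, and Cast was at 169.7 CPM in controls and 167.6 CPM with CYR61 (edgeR adjusted p = 0.782).

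Nlrc5, the transcriptional activator of MHC class I genes, is on chromosome 8 and rose. It had 112, 111, 111, 114, 102, 97.3 and 107 CPM in the controls and 140, 126, 115 and 129 CPM with CYR61. The groups did not overlap, though CYR61 replicate 3 at 115 CPM stood close to control replicate 4 at 114 CPM. The means were 108 ± 6.06 CPM (SD, n = 7) and 128 ± 10.4 CPM (SD, n = 4), a 1.19-fold rise (95% interval 1.10 to 1.27, edgeR adjusted p = 0.00366). An opposite-strand gene, 9330175E14Rik, shares 78 exon bases with it and was at 8.85 and 9.08 CPM.

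**Figure D3:**
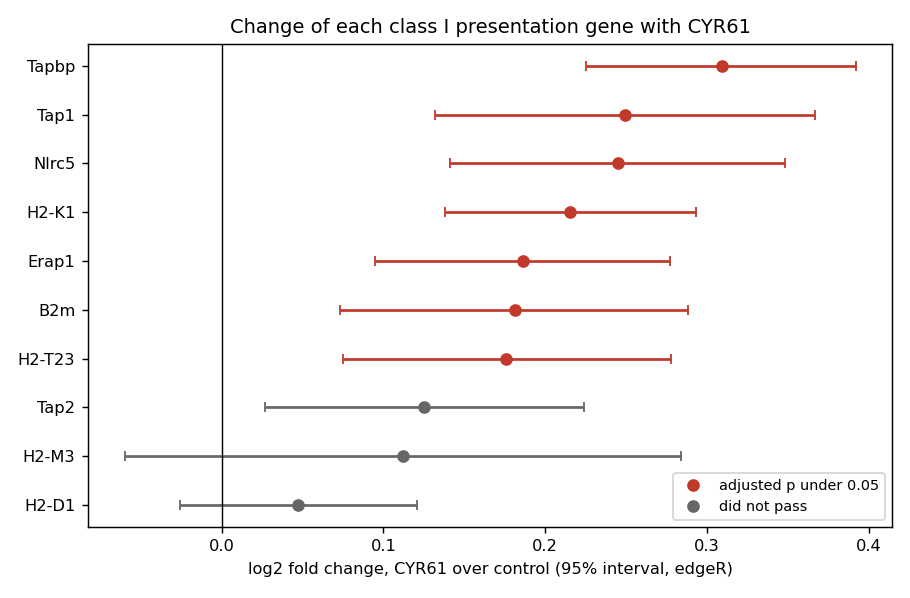
Log2 fold change (CYR61 over control, horizontal axis) of each of the 10 genes with its 95% interval from edgeR, ordered by size and coloured by whether the adjusted p was under 0.05. The estimates run from 0.05 for H2-D1 to 0.31 for Tapbp, and the intervals of H2-D1 and H2-M3 include 0.

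Steady levels of the 10 genes differed over a wide range. Per kilobase of exon (GENCODE M21), control levels were 1465 ± 50.1 CPM per kb for B2m, 985 ± 30.8 for H2-D1, 293 ± 14.9 for H2-K1, 153 ± 6.92 for Tapbp and 75.9 ± 4.66 for H2-T23 (SD, n = 7). The ranges of these 5 genes over the 7 controls did not overlap their neighbours in the order. Tap2, H2-M3, Tap1 and Nlrc5 followed at 15.5 ± 0.764, 13.9 ± 1.76, 13.5 ± 1.18 and 12.7 ± 0.713 CPM per kb (SD, n = 7), and each overlapped the next. Erap1 stood lowest at 6.83 ± 0.315 CPM per kb (SD, n = 7). The light chain and both classical heavy chains held the 3 highest places in the order, while the nonclassical heavy chain H2-M3 stood among the transporter and activator genes.

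Inside the groups, some of the 10 genes varied together and others went opposite ways. Control replicate 7 was the highest control for 7 of the 10, and CYR61 replicate 1 the highest CYR61 library for 6 and the lowest for 2 (B2m and Erap1). After each gene was centred within its group, log2 CPM of H2-D1 correlated with that of Tap2 (Pearson r = 0.890) and Tap1 (r = 0.875), and that of Tap1 with H2-K1 (r = 0.865) and Tap2 (r = 0.860), over the same 11 libraries. Of the 45 pairs of genes, 17 had a negative r. Erap1 was negative with 8 of the 9 other genes (r = -0.774 with H2-D1) and B2m with 6 (r = -0.572 with Tap2). These values are given as a description, since all points share library, depth and scaling, and few libraries set them.

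The genes most like the mean profile of the 10 were found among 8648 genes that averaged 10 CPM or more, by Pearson correlation over the 11 libraries. They were Chmp4b (r = 0.980), Oas1a (r = 0.979), Zbp1 (r = 0.978), Siglec1 (r = 0.974) and Sdc3 (r = 0.972). Centring within groups, which removes the difference between control and CYR61, gave Zbp1 (r = 0.936), Dhx58 (r = 0.924), Psme1 (r = 0.917), Chmp4b (r = 0.914) and Bst2 (r = 0.914). Zbp1, a sensor of Z-form nucleic acids, rose from 21.2 ± 3.02 CPM (SD, n = 7) to 41.6 ± 3.67 CPM (SD, n = 4; edgeR adjusted p = 1.09e-06). Psme1, a subunit of the PA28 proteasome activator, rose from 85.1 ± 4.29 CPM (SD, n = 7) to 93.5 ± 1.51 CPM (SD, n = 4; edgeR adjusted p = 0.0276).

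The steps before and after the 10 genes were described by 8 further lists. Their counts stand beside 5.33% of all genes tested called higher and 2.63% called lower. Cytosolic peptide supply, which makes the peptides, had 18 genes tested, of which 7 rose and 0 fell, with a median log2 fold change of 0.10. Psmb8, a catalytic subunit of the immunoproteasome, rose from 89.4 ± 5.60 CPM (SD, n = 7) to 107 ± 0.722 CPM (SD, n = 4; edgeR adjusted p = 0.000463). Psmb10, another of its catalytic subunits, rose from 50.6 to 61.2 CPM and Psme2, the partner of Psme1 in PA28, from 46.6 to 54.7 CPM (edgeR adjusted p = 0.00798 and 0.00389). Rnpep, an aminopeptidase, rose from 143.5 to 160.4 CPM (edgeR adjusted p = 0.000748). The list's 11 other genes did not pass, and without CYR61 replicate 3 the count that rose was 4.

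Peptide loading and heavy chain folding had 12 genes tested, of which 5 rose and 0 fell, with a median log2 fold change of 0.10. Calr, the chaperone of the loading complex, rose from 466 ± 35.1 CPM (SD, n = 7) to 616 ± 15.2 CPM (SD, n = 4), a 1.32-fold rise (edgeR adjusted p = 2.4e-05) and more than any of the 10 genes in size. Pdia3, the disulfide isomerase bound to tapasin, rose 1.20-fold (edgeR adjusted p = 3.25e-05). Ganab, a subunit of glucosidase II, rose from 124.3 to 135.2 CPM and Ppib, a prolyl isomerase, from 118 to 136 CPM (edgeR adjusted p = 0.00643 and 0.00517). With library size alone the list had 3 genes higher and 1 lower.

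Transcription factors of class I genes had 22 genes tested, of which 5 rose and 1 fell, with a median log2 fold change of 0.02. Irf7, an interferon regulatory factor, rose from 94.5 ± 17.3 CPM (SD, n = 7) to 150 ± 6.28 CPM (SD, n = 4), a 1.59-fold rise (edgeR adjusted p = 0.000171). Irf1, which binds interferon response elements of class I genes, rose 1.19-fold from 68.2 to 81.0 CPM (edgeR adjusted p = 6.53e-05). Stat2, a component of the interferon-activated complex ISGF3, rose 1.29-fold (edgeR adjusted p = 0.00134). All 3 had every CYR61 library above every control. Suz12, a Polycomb subunit chosen for mention after its value was seen, fell from 45.2 to 41.5 CPM (edgeR adjusted p = 0.0456), a call that was lost in 16 of the settings, including each fit that left out 1 library other than control replicate 7.

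**Figure D4:**
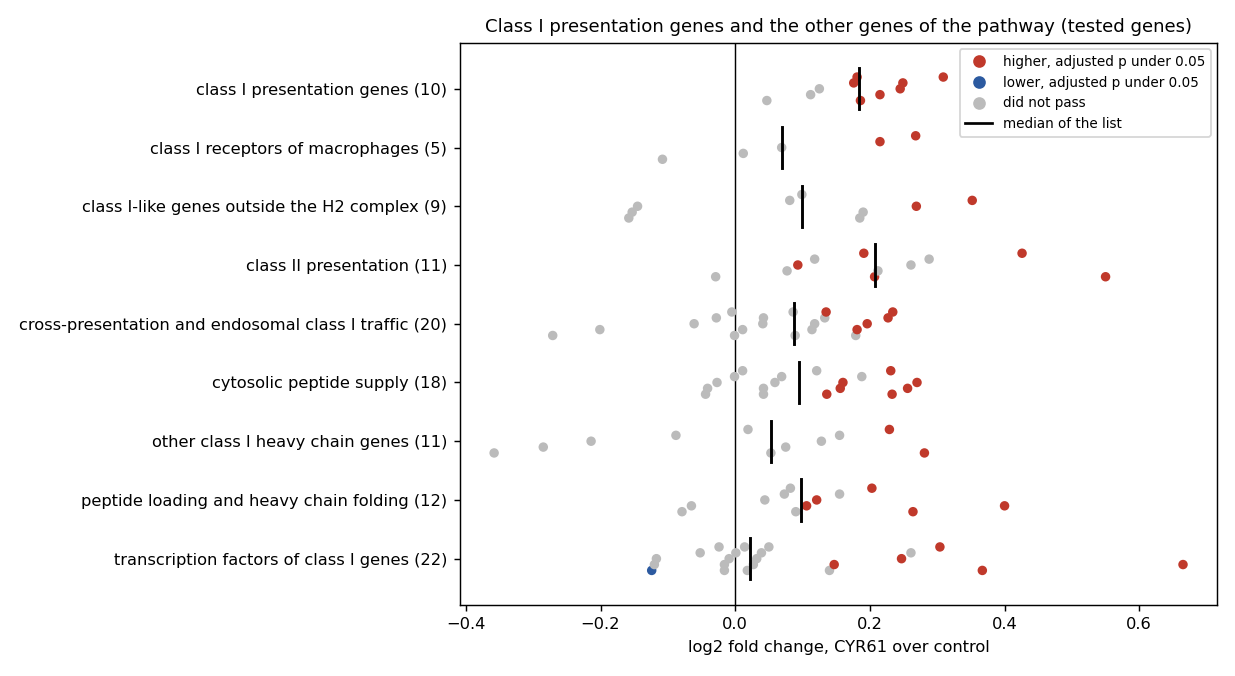
Log2 fold change (CYR61 over control) of every tested gene in the class I presentation genes and the 8 further lists, 1 point per gene, coloured by call. The class I presentation genes (median 0.18) and the class II list (median 0.21) have the highest medians, and all genes tested have a median of -0.01.

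Other class I heavy chain genes of the H2 complex had 19 genes in the table and 11 tested, of which 2 rose and 0 fell, with a median log2 fold change of 0.05. In this list 1 gene was lower with library size alone, without control replicate 3 and without CYR61 replicate 3. H2-T22, a ligand of a subset of gamma-delta T cells, rose 1.17-fold from 72.7 to 85.2 CPM and H2-T24 1.22-fold from 43.9 to 53.3 CPM (edgeR adjusted p = 0.000314 and 0.00701). H2-Q5 was at 7.80 ± 0.929 CPM (SD, n = 7) and 6.40 ± 0.283 CPM (SD, n = 4), and H2-Q6 at 5.41 ± 0.672 and 4.23 ± 1.07 CPM, neither of which passed (edgeR adjusted p = 0.0794 and 0.142). The H2 genes are close copies of one another, so these values are uncertain. Class I-like genes outside the complex had 9 tested, with 2 higher, 0 lower and a median of 0.10, and with 1 higher without control replicate 5, CYR61 replicate 3 or CYR61 replicate 4. Library size alone gave this list 1 higher and 1 lower, and 1 gene was also lower with DESeq2, with upper-quartile factors and without control replicate 3. Hfe, the iron regulator that pairs with beta-2-microglobulin, rose 1.28-fold from 57.5 ± 3.88 CPM (SD, n = 7) to 73.4 ± 4.12 CPM (SD, n = 4; edgeR adjusted p = 0.000122). Procr, the endothelial protein C receptor, rose from 15.9 to 19.2 CPM (edgeR adjusted p = 0.0249). Ulbp1 and Raet1d, ligands of the NKG2D receptor, were at 50.9 and 45.6 CPM and at 3.60 and 4.12 CPM, and neither passed (edgeR adjusted p = 0.0587 and 0.415).

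The list of class I receptors of macrophages had 5 genes tested, with 2 higher, 0 lower and a median log2 fold change of 0.07. Not all genes on this list are established receptors for class I molecules. Pirb, an inhibitory receptor for class I molecules, rose 1.20-fold from 551 ± 9.63 CPM (SD, n = 7) to 664 ± 49.2 CPM (SD, n = 4; edgeR adjusted p = 0.000154), with no overlap between the groups. Pira2, of the related activating family, rose from 124 to 144 CPM (edgeR adjusted p = 0.0026) and has near-identical copies, so its value is uncertain. Lilrb4a (608.8 and 638.5 CPM) and Cd160 (2.48 and 2.29 CPM) did not pass (edgeR adjusted p = 0.341 and 0.771). Cross-presentation and endosomal class I traffic had 20 genes tested, of which 5 rose and 0 fell, with a median of 0.09 (3 rose without CYR61 replicate 3 and 8 without control replicate 7). Sec61a1, a translocon subunit, rose from 133.4 to 146.5 CPM and Cyba, a subunit of the phagosomal NADPH oxidase, from 330.2 to 374.3 CPM (edgeR adjusted p = 0.00408 and 0.00252). Ehd1, which acts in endosomal recycling, rose from 43.4 to 51.1 CPM and Marchf1, a ubiquitin ligase of class II molecules, from 50.9 to 59.6 CPM (edgeR adjusted p = 0.00561 and 0.0144). The class II list, the other presentation pathway, had 11 genes tested, of which 5 rose and 0 fell, with a median of 0.21. The class II count fell to 2 or 3 in 12 settings, among them those without control replicates 1, 3, 4, 5 or 6 and without CYR61 replicates 1, 2 or 3. H2-Ab1 and H2-Eb1, chains of class II molecules, rose (edgeR adjusted p = 0.00598 and 0.0392) from control levels of 3.08 and 2.24 CPM per kb, beside 293 CPM per kb for H2-K1. The lysosomal enzymes Ctss and Ifi30 rose 1.07-fold and 1.15-fold (edgeR adjusted p = 0.0267 and 0.00133).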

How the data were processed

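RNA from 11 macrophage libraries was sequenced as paired 150-base reads after removal of ribosomal RNA, per the labels' protocols. DRAGEN is named in the submitters' processing notes, with its role, the genome build and the gene models not given in the sources used here. For each Ensembl gene and library the authors deposited expected counts (estimated counts), whose 287 repeated rows of 55774 were dropped. A deposited table of the authors' own comparison holds log2 fold changes and p-values, by a method that no source at hand states.

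Rounded counts were tested with edgeR 4.0.16 in R 4.3.3 (filterByExpr defaults, TMM factors, glmQLFit and glmQLFTest, 7 control against 4 CYR61 libraries, no covariates). Two-sided p-values were adjusted by Benjamini-Hochberg over 15135 genes and called under 0.05. The biological coefficient of variation came to 5.64%. CPM values were scaled by TMM, log2 CPM used a prior count of 2, and per-length levels used GENCODE M21 exon unions matched by Ensembl identifier. The procedure was tested on simulated counts. Ratios were compared by exact permutation over 330 splits.

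The genes, lists and markers were chosen with earlier results of these data known. Beyond the 10 genes, the text names at most 4 genes of lowest p per list, if their mean reached 1 CPM, and the 5 genes most correlated with the mean profile. Other genes are named as overlapping genes, as markers or as chosen after their values were seen. The list genes Lilrb4b, Nrdc, H2-Q9, H2-T7, H2-T9, H2-T13, H2-T26 and H2-BL were not analysed here, and some listed genes are not reported here by name. Alternatives were DESeq2 1.42.0, limma-voom (limma 3.58.1) with and without library quality weights, RLE or upper-quartile factors, library size alone, other filters, unrounded counts, no mitochondrial or ribosomal RNA genes, 1 surrogate variable (sva 3.50.0), 8 libraries with and without the replicate block, leaving out each library, and an adjusted p under 0.01.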

Additional observations from a re-analysis of the deposited data

Results flagged for a closer look

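For each of the 10 genes and 4 ratios, each group was checked for a library that lay far from the others relative to the group's range (Dixon's 95% critical value), and 6 of 28 groups had one, where chance flags about 1 in 20. Control replicate 7 stood apart for H2-D1 at 2696 CPM, with the other controls at 2460 to 2555 CPM. It also stood apart for Tap1 at 87.4 CPM, with the others at 67.7 to 74.7 CPM, and for the Tap1 to Tap2 ratio at 1.39, with the others at 1.22 to 1.28. CYR61 replicate 1 stood apart for Tap2 at 71.1 CPM, with the others at 60.8 to 62.2 CPM, and for Tapbp at 746 CPM, with the others at 662 to 676 CPM. Its ratio of B2m to H2-K1 plus H2-D1 was 0.313, with the others at 0.416 to 0.430. These 6 flags fall on 2 libraries, so they are not independent.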

How the results depend on the processing

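All 10 genes kept a positive log2 fold change in all 24 alternative fits. H2-K1, Tap1, Tapbp and Nlrc5 passed in 24 of 24, with log2 fold changes of 0.17 to 0.24, 0.21 to 0.30, 0.27 to 0.33 and 0.18 to 0.29. H2-D1 (0.00 to 0.07), Tap2 (0.07 to 0.16) and H2-M3 (0.07 to 0.22) passed in 0. B2m passed in 13, H2-T23 in 17 and Erap1 in 21, and the cause was not tested. The number of the 10 genes called higher was 5 with library size alone, 6 with upper-quartile factors, 5 to 7 when each library was left out, and 4 at an adjusted p under 0.01. Over all genes, library size alone gave 529 higher and 938 lower (36.06% of calls higher, against 66.94% with TMM). An adjusted p under 0.01 left 477 and 163. Leaving out each library gave 583 to 903 higher and 205 to 469 lower, both lowest without CYR61 replicate 2.

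The labels do not say if the replicate numbers shared by the groups pair the libraries. Same-numbered deviations correlated at -0.029, 0.016, -0.039 and 0.042, and 2 of 8 libraries correlated best with their own number. So few libraries cannot settle whether the groups were paired. With the replicate block on 8 libraries, 811 genes were higher, 450 lower and 6 of the 10 genes higher, with Erap1 lost (adjusted p = 0.104). The same 8 libraries without the block gave 829, 438 and 5.

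Counting precision was lowest for H2-M3 (247 to 510 counts per library) and highest for H2-D1 (37478 to 54609). Values of H2 genes are uncertain where near-identical copies share reads.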

Other observations

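H2-M2, a nonclassical class I heavy chain gene in the list of other heavy chains, did not pass the filter on low counts and is singled out here after its values were seen. It had 1, 7, 2, 3, 2, 7 and 3 counts in control replicates 1 to 7 and 6, 13, 14 and 12 counts in CYR61 replicates 1 to 4, or 0.185 ± 0.117 CPM (SD, n = 7) and 0.613 ± 0.204 CPM (SD, n = 4). Without the filter its log2 fold change was 1.66 (edgeR, adjusted p = 0.0126), a value that depends on the prior count at such low counts. CYR61 replicate 1, with 6 counts, lay inside the control range.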
